A study of Mus musculus with 6 samples.

Results

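Prostaglandins are made from arachidonic acid in a chain of enzymes, and 10 genes of that chain were followed here in cultured arterial smooth muscle. The genes were taken by symbol from a deposited table of 27179 genes, in which each of the 10 symbols matched 1 row. They encode an enzyme that releases arachidonate (Pla2g4a), both cyclooxygenases (Ptgs1 and Ptgs2), 3 prostaglandin E synthases (Ptges, Ptges2 and Ptges3), the synthases of prostacyclin (Ptgis), prostaglandin D (Ptgds) and thromboxane (Tbxas1), and the first enzyme of prostaglandin breakdown (Hpgd). The libraries held messenger RNA of primary smooth muscle cells from mouse aorta, 3 labelled WT and 3 labelled Bmal1 KO. Both groups had spent 7 days in the same diabetic condition medium, a growth medium to which hydrogen peroxide (0.3 mM) was added and in which glucose was at 4.5 g/L. The deletion's extent and driver, the strain, age and sex of the mice, and whether the repeats are separate cultures or animals are not given in the labels. The spread behind every p-value is that of these samples alone and may be technical.

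Cytosolic phospholipase A2 cuts arachidonate from membrane lipids, and a cyclooxygenase turns it into the unstable intermediate PGH2. PTGS1 (COX-1) is made constantly in most tissues, while PTGS2 (COX-2) is the form that cytokines and growth factors induce. A terminal synthase then decides the product. In the artery wall prostacyclin relaxes smooth muscle and restrains platelets, thromboxane contracts it, and prostaglandin E2 does either, depending on the receptor it meets. Inside cells HPGD, also called 15-PGDH, inactivates prostaglandins after a transporter has taken them up.

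Counts over the whole targeted gene did not follow the knockout label. Bmal1 is listed as Arntl, and its normalized counts were 529, 619 and 590.4 in WT against 1036, 941 and 1036 in the libraries labelled Bmal1 KO, all higher. Such counts do not show whether an exon is missing. Sex-linked RNA also separated the labels, with Xist between 12.4 and 89.9 in WT and between 3842 and 3887 in the others, and Y-linked Ddx3y between 2784 and 3314 against 68.5 to 82.5. Genotype label and sex-linked RNA cannot be told apart in any difference given here. Of 16086 genes tested, 71.1% were called different between the labels, 36.2% with higher counts under the Bmal1 KO label and 34.9% with lower counts. The 10 prostaglandin genes are read against that background.

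Of the 10 genes, 8 had enough reads to be tested (a normalized count of at least 10 in at least 3 libraries), and 7 of those 8 were called. Under the Bmal1 KO label Ptgs1, Ptgs2, Pla2g4a and Ptgds were higher, Ptgis, Ptges2 and Ptges3 were lower, and Ptges did not pass. The libraries of the groups did not overlap for any of the 8. Over all tested genes 71.1% were called and 76.7% did not overlap (38.5% higher and 38.2% lower), so these counts do not set the pathway apart. The sizes were modest beside the rest of the transcriptome. The median absolute log2 difference of the 8 genes was 0.46, against 0.63 over all genes tested, and their median signed difference was 0.012 against -0.012. Ptgds and Ptgis moved furthest. In absolute terms 11.5% of all tested genes differed more than Ptgds and 20.3% more than Ptgis, whereas 86.0% differed more than Pla2g4a and 88.3% more than Ptges.

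**Figure D1:**
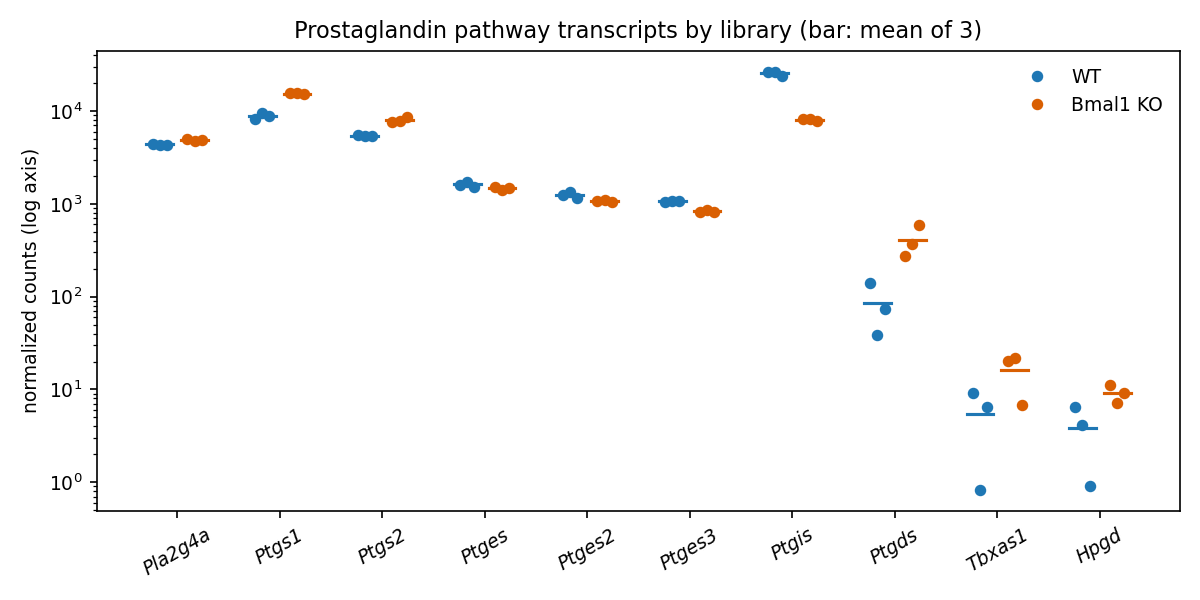
Normalized counts (log axis) of the 10 genes in each library, WT in blue and libraries labelled Bmal1 KO in orange, with points for libraries and bars for the mean of 3. The Ptgis points of the libraries labelled Bmal1 KO lie 3.18-fold below those of WT, while Tbxas1 and Hpgd have few counts in both groups.

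Pla2g4a encodes cytosolic phospholipase A2 alpha, the enzyme that supplies arachidonate (chromosome 1, 149829618 to 149961290 in GRCm38). Its normalized counts were 4466, 4323 and 4334 in WT and 5006, 4756 and 4831 in the libraries labelled Bmal1 KO. The groups did not overlap, though the difference was only 11.2% of the WT mean. The log2 difference was 0.15 (SE 0.054, limma adjusted p = 0.0338), and it is the least certain of the called rises. Leaving out WT replicate 2 or 3 gave adjusted p-values of 0.0740 and 0.0792, and leaving out Bmal1 KO replicate 1, 2 or 3 gave 0.132, 0.0722 and 0.0935, so that each of these ended the call. It was also lost under TMM scaling (adjusted p = 0.0795), scaling to total reads (adjusted p = 0.210), voom (adjusted p = 0.0982) and edgeR's quasi-likelihood test (adjusted p = 0.0914).

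Both cyclooxygenase transcripts were higher under the Bmal1 KO label. Ptgs1, the constitutive form (chromosome 2, 36216742 to 36258593), stood at 8234, 9468 and 8749 in WT and at 15484, 15475 and 15312 in the other group. Its mean went from 8817 ± 620 to 15424 ± 96.8 (SD, n = 3), a rise of 1.75-fold (log2 difference 0.81, SE 0.068, limma adjusted p = 2.58e-05). The 3 libraries labelled Bmal1 KO lay within a narrow band, well above the highest WT library. Ptgs1 shares 148 exonic bases with Gm43621, a gene model on the opposite strand, and without the strand setting a contribution of its reads was not tested.

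Ptgs2, the inducible form (chromosome 1, 150100031 to 150108234), stood at 5474, 5341 and 5347 in WT. In the libraries labelled Bmal1 KO it stood at 7597, 7783 and 8558. WT libraries were nearly equal, and replicate 3 of the other group was the highest of all. The mean rose 1.48-fold, from 5388 ± 75.2 to 7979 ± 510.1 (SD, n = 3, log2 difference 0.56, SE 0.064, limma adjusted p = 0.000127). The rises of Ptgs1 and Ptgs2 kept their call in all 18 alternatives, with log2 differences from 0.74 to 0.86 and from 0.49 to 0.60.

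Per kb of transcript, Ptgs1 RNA exceeded Ptgs2 RNA in every library. The Ptgs2 to Ptgs1 ratio of these levels was 0.428, 0.363 and 0.394 in WT and 0.316, 0.324 and 0.360 in the libraries labelled Bmal1 KO. The ratio was thus lower in the latter, with a gap between groups smaller than the spread within either. The log2 ratio differed by -0.24 (exact permutation test, two-sided, p = 0.1, the smallest that 3 against 3 can give). This ratio does not depend on how libraries are scaled.

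Because the libraries differ in a clock gene label, the windows around the annotated starts of these genes were searched for clock and induction motifs. RefSeq promoter windows (250 bases before to 50 after a start, GRCm38.p6) matched 9 of the 10 genes, in 10 windows. Ptgis had no window and was not searched. The search covered both strands for CACGTG (the E-box that CLOCK and BMAL1 bind), TTATGTAA (the D-box), TAGGTCA (the core of the element of ROR and REV-ERB), TGACGTCA (the cyclic AMP element), TTGCGCAA (a C/EBP element), the NF-kB element and TATAAA. A match describes letters in the window and does not show binding. The motifs were chosen after the windows were seen, so the shares over all windows given below do not measure how unusual a match is.

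The E-box matched in 2 of the 10 windows, those of Ptgs2 and Ptges2, and in 7.15% of all 32851 windows. In Ptgs2 it begins 16 bases after the annotated start. Where transcription of Ptgs2 starts in these cells was not tested. The 250 bases before the Ptgs2 start held TTGCGCAA, a C/EBP palindrome present in 0.183% of all windows, 69 bases before the start. The site of the E-box (plus strand, chr1:150100035-150100064) and the upstream stretch (plus strand, chr1:150099781-150100030) are shown because they are where the inducible cyclooxygenase carries these letters, in capitals.
Ptgs2 E-box site: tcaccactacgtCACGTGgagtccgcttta
Ptgs2 upstream: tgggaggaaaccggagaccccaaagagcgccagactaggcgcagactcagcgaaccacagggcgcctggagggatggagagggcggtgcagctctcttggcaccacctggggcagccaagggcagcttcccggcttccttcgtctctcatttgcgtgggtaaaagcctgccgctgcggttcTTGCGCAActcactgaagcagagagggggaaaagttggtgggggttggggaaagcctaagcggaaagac

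The window of Ptges2 held its E-box 77 bases before the start (plus strand, chr2:32395640-32395889), and that of Ptgds held the D-box, read on the other strand as TTACATAA, 141 bases before the start (minus strand, chr2:25469750-25469999). The D-box was in 0.938% of all windows. The Ptgds window precedes an annotated start inside the gene's span, so its letters lie within the gene as placed below. The window of Tbxas1 and 1 of Pla2g4a also lie inside the span of their gene. The Ptges2 and Ptgds stretches are shown, motif in capitals. They belong to the other gene with the E-box and to the gene with the largest rise.
Ptges2 upstream: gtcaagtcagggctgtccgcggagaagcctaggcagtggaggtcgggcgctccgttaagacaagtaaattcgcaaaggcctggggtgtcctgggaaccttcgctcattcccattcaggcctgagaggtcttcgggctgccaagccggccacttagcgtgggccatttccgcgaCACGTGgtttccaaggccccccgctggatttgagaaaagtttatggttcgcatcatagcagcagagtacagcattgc
Ptgds upstream: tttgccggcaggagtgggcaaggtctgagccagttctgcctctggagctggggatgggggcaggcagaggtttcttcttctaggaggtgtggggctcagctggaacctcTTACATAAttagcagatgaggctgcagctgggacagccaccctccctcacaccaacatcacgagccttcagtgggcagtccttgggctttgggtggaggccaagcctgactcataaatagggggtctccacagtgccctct
Of the other motifs, TAGGTCA matched once, 207 bases before a start of Pla2g4a (2.61% of all windows), and TATAAA matched in a window of Pla2g4a, of Tbxas1 and of Hpgd (13.6%). TGACGTCA and the NF-kB element matched in none of the 10 windows and in 1.79% and 1.63% of all. Only full-length forms inside the windows were searched, so shorter forms and sites farther upstream are not covered. The pair of genes with an E-box in the window, Ptgs2 and Ptges2, differed in opposite directions. The Ptges2 call was lost in 7 of 18 alternatives. Whether the E-box has a part in either difference was not tested.

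The 3 prostaglandin E synthase transcripts were each somewhat lower in the libraries labelled Bmal1 KO. Ptges encodes the membrane-bound, inducible synthase mPGES-1 (chromosome 2, 30889471 to 30931020). It stood at 1593, 1737 and 1536 in WT and at 1533, 1422 and 1493 in the other group, which do not overlap but nearly meet. The log2 difference was -0.13 (95% interval -0.30 to 0.039, limma adjusted p = 0.143). Ptges therefore did not pass, unlike Ptgs2, with which it is usually induced. It passed when libraries were scaled to total reads (adjusted p = 0.0317) and when a trend with transcript length and GC content was taken out (adjusted p = 0.0163).

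Ptges2 encodes a second membrane-associated synthase (chromosome 2, 32395890 to 32402740). Its normalized counts were 1231, 1337 and 1150.3 in WT and 1073, 1098 and 1043 in the libraries labelled Bmal1 KO, without overlap. The fall was slight, with a log2 difference of -0.21 (SE 0.078, limma adjusted p = 0.0420). Leaving out WT replicate 2 (adjusted p = 0.129) ended the call, as did leaving out Bmal1 KO replicate 1, 2 or 3, with adjusted p-values of 0.0965, 0.0787 and 0.126. So did upper-quartile scaling (adjusted p = 0.0676), no filter (adjusted p = 0.0503) and DESeq2 (adjusted p = 0.0614).

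Ptges3, which encodes the HSP90 co-chaperone p23, also described as the cytosolic prostaglandin E synthase (chromosome 10, 128058982 to 128077254), was more even. It stood at 1046, 1066 and 1079 in WT and at 820.3, 856 and 825 in the libraries labelled Bmal1 KO. Both groups were tight and lay apart, with a log2 difference of -0.35 (SE 0.067, limma adjusted p = 0.00202). Taking out the trend with length and GC content ended the call (adjusted p = 0.0559). A pseudogene, Ptges3-ps, is annotated, so the absolute level of Ptges3 is uncertain.

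Ptgis had the largest fall of the 8 tested genes. It encodes prostacyclin synthase (chromosome 2, 167203194 to 167252150), a cytochrome P450 that makes the vasodilator prostacyclin. WT libraries held 26482, 26573 and 23927 normalized counts, and libraries labelled Bmal1 KO held 8151, 8181 and 7883. The lowest WT library was far above the highest of the other group. The mean fell 3.18-fold, from 25661 ± 1502 to 8072 ± 164 (SD, n = 3, log2 difference -1.67, SE 0.067, limma adjusted p = 5.28e-07). All 18 alternatives kept the call, with log2 differences from -1.74 to -1.53. Ptgis shares 156 exonic bases with the opposite-strand transcript 1110018N20Rik, and any contribution of its reads was not tested.

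Ptgds, which encodes the lipocalin-type prostaglandin D synthase (chromosome 2, 25466709 to 25470110), had the largest rise and the widest scatter. Its normalized counts were 141, 39.0 and 73.7 in WT and 273, 367 and 593 in the libraries labelled Bmal1 KO. All of the latter lay above the highest WT library, though the libraries within each group lay far apart. The mean rose 4.86-fold, from 84.6 ± 52.0 to 411 ± 164 (SD, n = 3, log2 difference 2.38, SE 0.46, limma adjusted p = 0.00219). The interval on the log2 difference was accordingly wide, from 1.31 to 3.45. Leaving out single libraries moved it between 1.92 and 2.84, always called.

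Tbxas1 and Hpgd were barely detected and were not tested. Tbxas1 encodes thromboxane synthase, which platelets and macrophages make in quantity (chromosome 6, 38864159 to 39084590). It stood at 9.17, 0.829 and 6.45 in WT and at 20.4, 21.6 and 6.85 in the libraries labelled Bmal1 KO, with overlap, since replicate 3 of the latter lay among the WT libraries. Pooled over libraries these were 18 and 44 reads, a ratio of 3.07 after scaling with an exact 95% interval of 1.74 to 5.65 for counting error only. Fitted without a filter it did not pass (limma adjusted p = 0.0936). The opposite-strand model Gm42962 shares 144 exonic bases with it.

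Hpgd, the gene of the enzyme that starts prostaglandin breakdown (chromosome 8, 56294552 to 56321046), stood at 6.42, 4.15 and 0.921 in WT. It stood at 11.2, 7.19 and 9.14 in the libraries labelled Bmal1 KO, all just above the WT values. The reads behind these values were 13 and 25, a ratio of 2.42 with an exact 95% interval of 1.19 to 5.15. Without a filter it did not pass either (limma adjusted p = 0.0884). At this depth no statement about a change of either gene between the labels can be made beyond these counts.

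**Figure D2:**
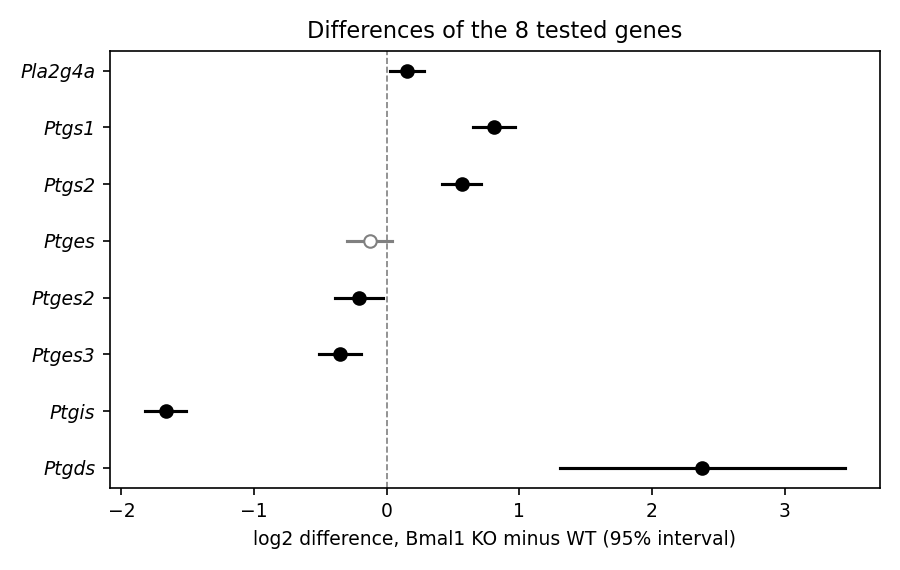
Log2 differences (libraries labelled Bmal1 KO minus WT) of the 8 tested genes with 95% intervals from limma, where filled black points are called and the open grey point is not. Ptgis lies alone at -1.67, both cyclooxygenases lie to the right of 0, and Ptgds has the widest interval.

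The order of the transcripts by level per kb of transcript changed at the top. In WT, Ptgis led with 12179 ± 713 normalized counts per kb (SD, n = 3), above 99.0% of tested genes with a known length, and Ptgs1 followed at 3075 ± 216. In the libraries labelled Bmal1 KO, Ptgs1 led with 5380 ± 33.8, and Ptgis was next at 3831 ± 77.7, still above 95.7% of genes. Ptgs1 and Ptgis did not overlap across libraries in either group, so this exchange of rank exceeds the spread.

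Below them in WT came Pla2g4a (1532 per kb), Ptgs2 (1210 per kb), Ptges3 (532), Ptges (445), Ptges2 (248.95) and Ptgds (93.9). Each of these neighbours was separated from the next across the 3 WT libraries, and only Tbxas1 (2.76) and Hpgd (2.28), at the foot, overlapped. In the libraries labelled Bmal1 KO, Ptgs2 (1792) and Pla2g4a (1703) overlapped, as did Ptgds (456) with Ptges3 (417) and Ptges3 with Ptges (407). Ptgds thus moved from below the E synthases to among them. Divided by all annotated exonic bases in place of the longest coding transcript, Ptgis and Ptgs1 kept the first ranks in this order, while Pla2g4a fell behind Ptgs2 in WT and Ptgds behind Ptges and Ptges3 in the other group.

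**Figure D3:**
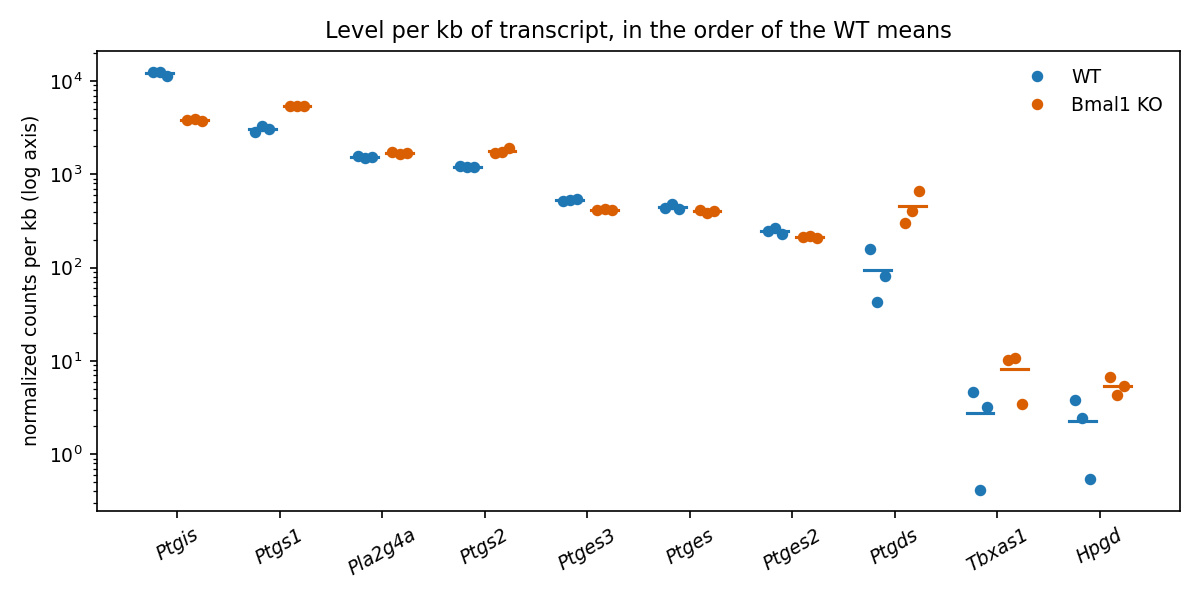
Normalized counts per kb of the longest coding transcript (log axis) for the 10 genes, ordered by the WT mean, with points for libraries and bars for means. Ptgis is highest in WT and Ptgs1 is highest in the libraries labelled Bmal1 KO.

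Among the 6 terminal synthase transcripts, Ptgis held most of the summed level per kb in every library. Its share was 90.2%, 90.5% and 89.9% in WT and 74.0%, 72.7% and 68.9% in the libraries labelled Bmal1 KO. The share of Ptgds went from 0.694% ± 0.409 to 8.51% ± 3.25 (SD, n = 3), and that of the 3 E synthases, whose mean levels per kb were lower, was higher because the total was lower. Ptges, for example, took 3.30% ± 0.146 in WT and 7.62% ± 0.376 in the other group. The ratio of Ptges to Ptgis per kb was 0.0348, 0.0378 and 0.0371 in WT and 0.109, 0.1004 and 0.109 in the libraries labelled Bmal1 KO. That is a 2.91-fold higher ratio (log2 difference 1.54, exact permutation test, two-sided, p = 0.1, the smallest possible), with groups far apart. These are shares of RNA, not of enzyme or product.

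**Figure D4:**
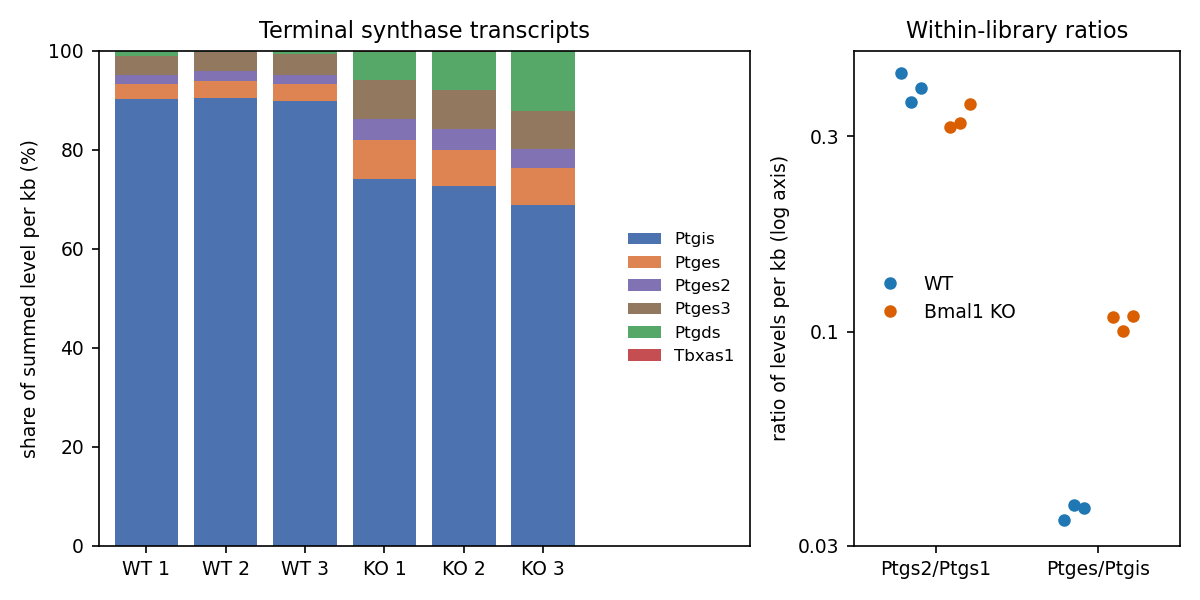
Left, share (%) of each of 6 terminal synthase transcripts in their summed level per kb, 1 bar per library. Right, within-library ratios of levels per kb (log axis) for Ptgs2 to Ptgs1 and Ptges to Ptgis, 1 point per library, in which the second ratio is about 0.0348 to 0.0378 in WT and 0.1004 to 0.109 in the libraries labelled Bmal1 KO.

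Receptors carry the products' signals across the cell membrane. Of 9 prostanoid receptor genes, 7 were tested, of which 3 were higher and 3 lower under the Bmal1 KO label and 1 did not pass. Over all tested genes 36.2% were higher and 34.9% lower. The median absolute log2 difference was 1.44 against 0.63 over all genes. For prostaglandin E2 there are 4 receptors, EP1 to EP4. Ptger3 encodes EP3, which couples to the inhibitory G protein and lowers cyclic AMP. It stood at 1168, 1299 and 1210.2 in WT and at 41.8, 70.7 and 64.0 in the libraries labelled Bmal1 KO, far below. This was a 20.8-fold fall (log2 difference -4.39, SE 0.20, limma adjusted p = 9.11e-07).

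Ptger2 and Ptger4 encode EP2 and EP4, which raise cyclic AMP and relax smooth muscle. Ptger2 stood at 78.0, 62.2 and 65.4 in WT and at 20.4, 25.2 and 26.3 in the libraries labelled Bmal1 KO, 2.86-fold lower (limma adjusted p = 0.000786). Ptger4 stood at 143, 133 and 112 against 54.0, 51.6 and 51.4, 2.47-fold lower (limma adjusted p = 0.000404). Neither overlapped between groups. Ptger1, which encodes the calcium-mobilising EP1, did not pass. Its values were 1681, 2455 and 2065 in WT and 1859, 2110.2 and 2012 in the other group, with overlap (log2 difference -0.037, 95% interval -0.34 to 0.27, limma adjusted p = 0.811). The sign of this small difference turned with upper-quartile scaling and without WT replicate 2 or Bmal1 KO replicate 1, and it passed, at -0.24, once the trend with length and GC content was taken out (adjusted p = 0.0136).

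The receptors of prostacyclin, thromboxane and prostaglandin F rose. Ptgir, the gene of the prostacyclin receptor IP, stood at 76.1, 73.8 and 68.2 in WT and at 195, 211 and 192 in the libraries labelled Bmal1 KO. It was 2.74-fold higher (log2 difference 1.44, limma adjusted p = 7.71e-05), while the synthase of its ligand was lower. Tbxa2r, the gene of the contractile thromboxane receptor TP, stood at 54.1, 47.3 and 23.9 in WT and at 591, 623 and 613 in the other group. This was the largest rise of a receptor, 14.6-fold (log2 difference 3.91, SE 0.29, limma adjusted p = 1.19e-05). Ptgfr, the gene of the prostaglandin F receptor, rose 2.31-fold, from 73.1 ± 7.85 to 169 ± 9.13 (SD, n = 3, limma adjusted p = 0.000329). The prostaglandin D receptor gene Ptgdr had no reads in any library, and Ptgdr2 had 22 reads in WT and 11 in the others, too few to be tested.

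**Figure D5:**
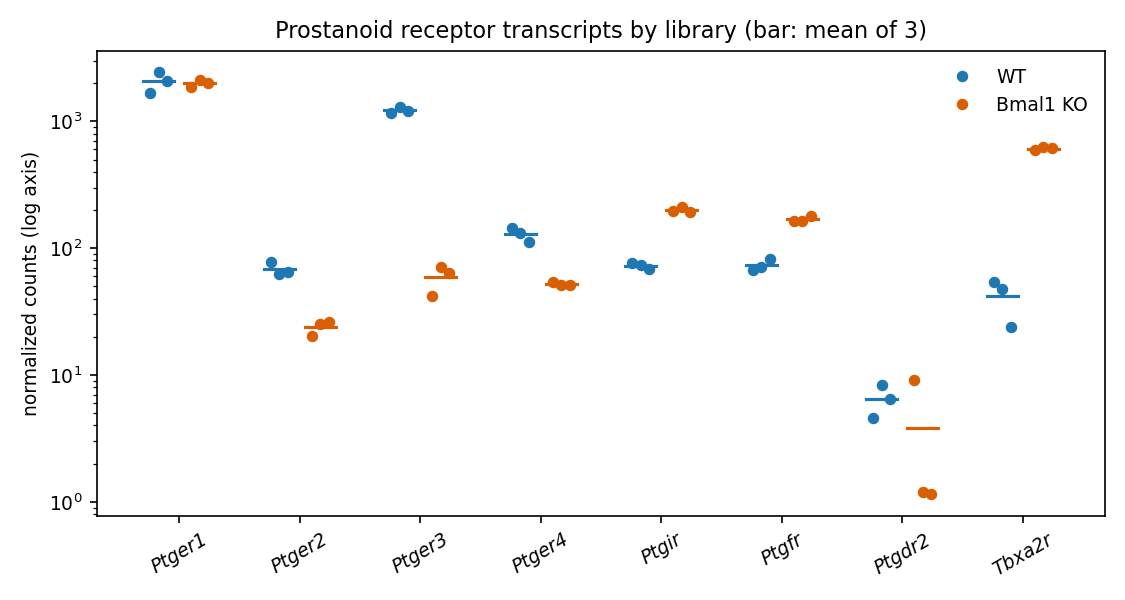
Normalized counts (log axis) of 8 prostanoid receptor genes in each library, WT in blue and libraries labelled Bmal1 KO in orange, with bars for means; Ptgdr, with no reads, is left out. Ptger3 is lower by 20.8-fold and Tbxa2r higher by 14.6-fold in the libraries labelled Bmal1 KO, while the groups overlap for Ptger1.

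Slco2a1 and Slco3a1, which encode carriers of prostaglandins, were higher, while Hpgd had few reads. Of 9 genes of transport and later breakdown, 4 were higher, 3 lower and 2 did not pass, against 36.2% higher and 34.9% lower over all tested genes. Slco2b1, 1 of the 4, reached the filter only through the libraries labelled Bmal1 KO. Slco2a1, which encodes the prostaglandin transporter, stood at 3320, 4897 and 4403 in WT and at 10139, 11087 and 10580.4 in the libraries labelled Bmal1 KO, without overlap. It was 2.52-fold higher (log2 difference 1.35, limma adjusted p = 6.01e-05). Slco3a1, a related carrier gene, was 2.59-fold higher (limma adjusted p = 6.48e-06). Zadh2, which encodes a prostaglandin reductase, was 1.63-fold higher. Among the other reductase genes Ptgr1 had a log2 difference of -0.32 (limma adjusted p = 0.0301) and Ptgr2 one of -0.14 (limma adjusted p = 0.0667). Ptgr2 passed as lower under TMM, total-read scaling, edgeR, voom and the length and GC alternative, with adjusted p-values from 0.0125 to 0.0394. Leaving out Bmal1 KO replicate 2 or 3 ended the Ptgr1 call (adjusted p = 0.103 and 0.0914), as did upper-quartile scaling (adjusted p = 0.0510).

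Other enzymes that release arachidonate or its precursors include secreted phospholipases and lipases of endocannabinoids. In that list 13 genes were tested, with 9 called higher, 1 called lower and 3 not called, where 36.2% of all tested genes were called higher and 34.9% lower. Of the 9, Pla2g4e and Pla2g2d reached the filter only through the libraries labelled Bmal1 KO, so they could be called in no other direction. Pla2g2f, also 1 of the 9, was below 10 in WT replicate 2 (2.49), so for it too WT alone did not reach the filter. Pla2g1b, a secreted phospholipase gene, went from 118 ± 58.3 to 1113 ± 342 (SD, n = 3, 9.47-fold), and Pla2g2f from 24.7 ± 20.6 to 180.3 ± 57.9 (7.29-fold). The secreted phospholipase genes varied widely within groups, Pla2g2f from 2.49 to 43.3 in WT. Its log2 difference of 3.41 became 2.28 without WT replicate 2 and 4.12 without WT replicate 3. Mgll, whose product cuts the endocannabinoid 2-arachidonoylglycerol, rose 3.87-fold, and Faah, whose product cuts anandamide, rose 3.56-fold. Pla2g6, the calcium-independent phospholipase gene, was the 1 called lower, from 2905 to 1569. Pla2g12a was called lower as well under TMM, total-read scaling, the replicate block, edgeR and voom, with adjusted p-values from 0.0247 to 0.0479 (0.0767 otherwise).

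Of 13 genes that set the arachidonate pool, 6 were called higher, 6 were called lower and 1 was not called, where 71.1% of all tested genes were called. Anxa1 encodes annexin A1, a protein known to restrain phospholipase A2 and inflammation. It stood at 25706, 20828 and 21220.4 in WT and at 131277, 127054 and 114321 in the libraries labelled Bmal1 KO, 5.50-fold higher (limma adjusted p = 9.25e-07). Acsl5, which activates fatty acids, rose 2.08-fold. Mboat7, which puts arachidonate into phosphatidylinositol, rose 1.94-fold, and Lpcat1, another lysophospholipid acyltransferase gene, 1.89-fold. Lpcat3, also called higher (log2 difference 0.21, limma adjusted p = 0.0318), lost its call in 9 of 18 alternatives. The 6 called lower were the desaturase genes Fads1 and Fads2, the elongase gene Elovl5, the acyltransferase gene Lpcat2 and the acyl-CoA synthetase genes Acsl1 and Acsl6, between 1.15-fold (Elovl5) and 1.46-fold (Lpcat2) lower. Leaving out WT replicate 3 or Bmal1 KO replicate 1 ended the Acsl6 call (adjusted p = 0.0764 and 0.0590). The Elovl5 call ended without WT replicate 2 or 3 (adjusted p = 0.0652 and 0.0782), without any 1 of the Bmal1 KO replicates 1, 2 and 3 (0.0523, 0.0876 and 0.0800), with upper-quartile scaling (0.0525) and with the length and GC alternative (0.100022).

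Of 7 tested genes for other synthases and reductases, 2 were higher, 4 lower and 1 did not pass, against 36.2% higher and 34.9% lower over all tested genes. With the trend in length and GC content taken out, only 1 was lower. Akr1c18, which encodes a hydroxysteroid dehydrogenase of the family that can make prostaglandin F, rose from 235 ± 40.5 to 2745 ± 181 (SD, n = 3, 11.7-fold, limma adjusted p = 3.00e-07). Akr1b3, an aldose reductase with prostaglandin F synthase activity, fell 1.65-fold. Gstm2 fell 1.47-fold, a call that ended when the trend with length and GC content was taken out (adjusted p = 0.0716), and Cbr1 rose 1.35-fold. Among 11 tested genes of the lipoxygenase and epoxygenase branches, which use the same arachidonate, 4 were higher, 4 lower and 3 did not pass. Here too 36.2% of all tested genes were higher and 34.9% lower. Cysltr1, 1 of the 4 higher, reached the filter only through the libraries labelled Bmal1 KO, and with no filter 7 were higher. The 4 called falls were all in leukotriene and lipoxygenase genes. Such genes with too few reads to be tested went both ways. Alox12b, Alox15 and Alox8 had 6, 6 and 11 reads in WT and 28, 28 and 32 in the others. The receptor genes Ltb4r1 and Ltb4r2 had 31 and 25 reads in WT and 6 and 12 in the others. Ltc4s, of cysteinyl leukotriene synthesis, fell 6.48-fold (limma adjusted p = 0.000167), and the lipoxygenase genes Alox12 and Alox5 fell 3.90-fold (limma adjusted p = 0.000117) and 3.57-fold (limma adjusted p = 0.000792). Lta4h, of leukotriene B4 synthesis, fell 1.78-fold, while the epoxide hydrolase gene Ephx2 rose 1.57-fold and the epoxygenase gene Cyp2j6 rose 1.41-fold. Ephx1 differed 1.16-fold, a call that ended when Bmal1 KO replicate 1 or 2 was left out (adjusted p = 0.0672 and 0.0729) or libraries were scaled to total reads (adjusted p = 0.0647).

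Markers of the cells that these enzymes are known from also differed between the labels. Their counts stand beside 71.1% of all tested genes called, 36.2% higher and 34.9% lower. Summed normalized counts of 8 smooth muscle markers ran from 32007 to 36777 in WT and from 106774 to 115835 in the libraries labelled Bmal1 KO, with all 8 called higher. Endothelial markers, of a cell type rich in Ptgis, summed to 359 to 476 in WT and 848 to 1073 in the others (6 of 8 higher, 2 not passing), the opposite direction to Ptgis. Fibroblast markers summed to 16126 to 17268 and 30581 to 33555 (5 of 8 higher, 3 lower), and mesothelial markers to 4035 to 5204 and 8209 to 12093 (4 of 8 higher, 4 lower). In the fibroblast list Ly6a had the largest gain in mean counts (3336 to 16628), while Pi16, Cd34 and Lum were lower. In the mesothelial list Msln (356 to 4525) and Krt8 (485 to 2446, with overlap) gained most, while Upk3b, Lrrn4, Krt19 and Wt1 were lower.

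Macrophage markers summed to 3607 to 4190.4 in WT and 2454 to 2978 in the libraries labelled Bmal1 KO, a fall carried by Cd14 and Cd68, while the other 8 of 10 rose. Platelet and megakaryocyte markers, for the cells best known for Ptgs1 and Tbxas1, summed to 640.1 to 737 and 406 to 462 (1 of 3 tested higher, 2 lower). Gp6 was at 0 in WT and had 1 read in the other group. Of 9 mast cell markers 3 were tested, 2 of them higher. All 9 together summed to 106 to 118 in WT and 737 to 892 in the others. Most of the WT sum was Kit, at 93.0 to 105 in WT and 71.3 to 87.5 in the others, which did not pass. The tryptase gene Tpsab1 was at 0 in WT and between 621 and 772 in the others, while the receptor genes Fcer1a and Ms4a2 were at 0 in every library. Some called markers reached the filter only through 1 group and could be called in 1 direction alone. These were Emcn and Cldn5 (endothelial), Itgam and Mrc1 (macrophage) and Tpsab1 and Tpsb2 (mast cell) through the libraries labelled Bmal1 KO, and Lrrn4 and Wt1 (mesothelial) and Ppbp (platelet) through WT. Cdh5 and Tek (endothelial), Adgre1, Ptprc and C1qb (macrophage) and Krt18 (mesothelial) were below 10 in WT replicate 2. For them too WT alone did not reach the filter. Smooth muscle, endothelial, fibroblast, mesothelial and mast cell sums moved up with Ptgs1, Ptgs2, Ptgds and the receptors that rose, and their part in those results was not tested. A sum follows its most abundant genes, and most of the mast cell sum in the libraries labelled Bmal1 KO was Tpsab1. In bulk RNA of this kind, fewer cells of a type and less RNA per cell cannot be told apart.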

How the data were processed

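The authors deposited 1 table of 27179 genes by NCBI Gene ID, holding a normalized signal per gene for each of the 6 libraries. The submitters' processing notes name Trimmomatic, HISAT2, featureCounts and the mm10 build, with no versions. No source used here gives the counting annotation or its strand setting. In the deposited signal 100% of values were whole multiples of what 1 read is worth in that library, within 0.01, so whole reads were recovered. Totals ran from 32503525 to 44657471 reads, and replicates of a group differed beyond sampling noise.

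limma 3.58.1 (R 4.3.3) was fitted to log2(value + 1) with a mean-variance trend and group as the only term. It covered the 16086 genes whose normalized count reached 10 in 3 libraries or more. P-values were Benjamini-Hochberg adjusted over those genes, with a threshold of 0.05, and each adjusted p is from this fit unless another tool or setting is named. The script was tested on simulated data. Alternatives were edgeR 4.0.16, which called 5588 genes higher and 5891 lower on the recovered reads, DESeq2 1.42.0, voom, other scalings, filters and pseudocounts, a replicate block and single libraries left out. A trend with transcript length and GC content was taken out as an alternative chosen after seeing the data.

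The 10 genes and all lists were chosen with earlier results of these data known, and the motifs after the windows were seen. All 10 genes and all receptors are named, and of each other list up to 4 called genes with the largest differences and a mean of at least 100. Other genes of the lists, such as Pla2g6, Ptgr1 and Ltc4s, and single markers were named after their values were seen. Values of 2 listed genes are not reported here. Levels per kb used the longest protein-coding GENCODE M21 transcript. Coordinates and windows are RefSeq's on GRCm38.p6. Intervals on reads cover counting error only, because reads copied by PCR are not separate molecules.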

Additional observations from a re-analysis of the deposited data

How the results depend on the processing

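The groups are 3 libraries against 3, and the spread rests on them. Over 18 alternatives for each of the 8 tested prostaglandin genes, 125 of 144 values kept the direction and the side of the threshold, 17 kept the direction but lost the call, 2 gained one and 0 reversed. The lost calls were those of Pla2g4a, Ptges2 and Ptges3 and the gained ones those of Ptges. The cause was not tested. The number of these genes called higher stayed between 3 and 4 and lower between 2 and 4 in every alternative. With a replicate block, in which same-numbered libraries are paired, the counts were 4 and 3, as without it, and over all genes 5869 higher and 5687 lower against 5816 and 5619. Deviations of same-numbered libraries correlated at -0.0045, 0.026 and 0.084, and those of differently numbered ones at -0.131 to 0.0939. With 3 libraries a group this cannot show whether the numbers pair the samples. Signs turned in the other lists for Ptger1 with upper-quartile scaling (0.0021) and without WT replicate 2 or Bmal1 KO replicate 1 (0.096 and 0.013), and, with a trend in length and GC content taken out, for Prxl2b (0.062) and Alox5ap (0.028). None of these passed. The Ptgs2 to Ptgs1 log2 ratio difference lay between -0.30 and -0.18 and that of Ptges to Ptgis between 1.503 and 1.578 when single libraries were left out. Depth limits only Tbxas1, Hpgd and Ptgdr2 among the genes discussed by library, at 11 to 44 reads a group.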
